A study of Mus musculus with 24 samples.

Results

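The genes described here are 9 mouse genes that carry the type I interferon signal. They are the receptor chains Ifnar1 and Ifnar2, the receptor kinases Jak1 and Tyk2, the ISGF3 subunits Stat2 and Irf9, and the interferon regulatory factors Irf1, Irf3 and Irf7. They were chosen by symbol for their known place in this pathway, with earlier results of these data known, so their counts are set beside those of all genes without a test. All 9 were among the 10394 to 11467 genes tested in each experiment.

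As background, type I interferons bind a receptor made of the IFNAR1 and IFNAR2 chains, which hold the kinases TYK2 and JAK1. Signalling from this receptor assembles the transcription complex ISGF3, of which STAT2 and IRF9 are subunits and which binds interferon-stimulated response elements (ISREs) in its target genes. IRF3 and IRF7 act upstream of interferon production, downstream of sensors of foreign or misplaced nucleic acid, IRF1 drives guanylate-binding protein and antigen presentation genes, and in breast tumors both cancer cells and infiltrating leukocytes can respond to interferon.

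The study inhibited pleiotrophin (PTN), a secreted heparin-binding factor, in mouse models of breast cancer. RNA was sequenced from 24 samples in 4 experiments, each with 3 control and 3 PTN-inhibited samples. In the tumor experiments mice received the anti-PTN antibody 3B10 or the control IgG C44, at 15 mg/kg. In the cell experiments a PTN shRNA (shPTN) was compared with a control vector (shCtrl). 4T1 tumors grew in BALB/c mice from an implanted mouse mammary carcinoma line, and the methods give an age of 8 wk for female recipients. *MMTV-PyMT* tumors arose in FVB/N transgenic mice, in which the MMTV promoter drives the polyoma middle T antigen in mammary epithelium, and treatment began after 8 wk of age. E0771 is a mammary adenocarcinoma line of C57BL/6 origin, and E0771-LG was derived from a lung metastasis of E0771. All cells were grown in the same serum-containing medium, and E0771shCtrl, E0771shPTN, E0771-LGshCtrl and E0771-LGshPTN all carry an integrated, puromycin-selected vector. Knockdown rests on 1 shRNA construct, and the control vector targets EGFP, so effects of PTN loss and of the construct itself cannot be told apart. The replicates are called biological, and nothing says whether replicates of the cells came from separate cultures. Both kinds of tumor are bulk tissue and contain host cells.

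In the *MMTV-PyMT* tumors and the cells, the unit is log2 CPM after adding 0.5 reads, and the libraries held between 15.63 and 21.12 M reads on genes. The 4T1 values are log2 values normalized for gene length, with unknown depth, and are compared with nothing outside that experiment. Each experiment was tested with limma, adjusted over all genes tested, and a gene is said to rise or fall where the adjusted p was under 0.05. Negative fold changes stand for lower expression with 3B10 or shPTN. All 9 genes passed the filter on low values in each experiment.

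Some libraries stood apart from the others of their group in 28 ISGF3 target genes, of which 26 were tested in the cells. Replicate 2 of E0771-LGshCtrl was above both other replicates for 26 of 26 target genes, by a median of 1.25 log2 units, whereas 39.3% of all genes were above both. Replicate 1 of E0771-LGshPTN was below both others for 24 of 26, against 37.1% of all genes. In E0771shCtrl, replicate 1 was below both others for 25 of 26 target genes (38% of all genes). Replicate 2 was above both for 21 of 26 (42.3%). Replicate 1 of the *MMTV-PyMT* tumors with 3B10 was below both others for 27 of 28 target genes (median −0.94), against 25.1% of all genes. Replicate 3 of those with C44 was above both for 26 of 28 (34.2%). Replicate 1 of the 4T1 tumors with 3B10 was above both others for 23 of 28, against 21.5% of all genes. Values without the library in question, or ranges without single samples, are given beside several of the members and target genes that depend on it.

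**Figure D1:**
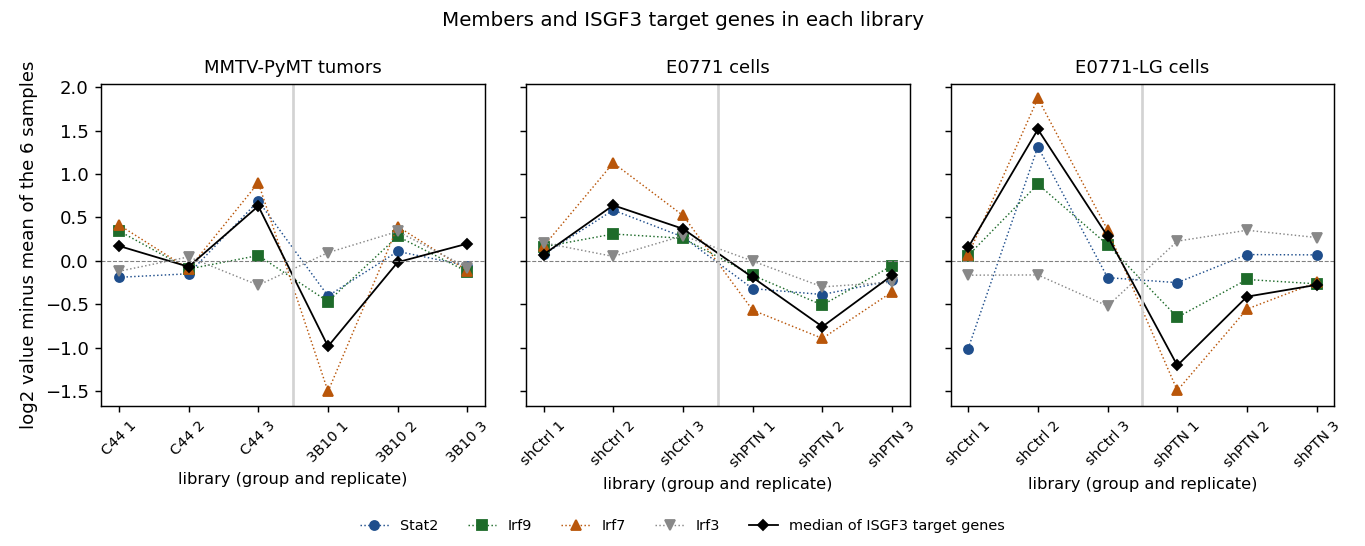
Log2 values of Stat2, Irf9, Irf7 and Irf3, and the median over ISGF3 target genes (black), in each library of the *MMTV-PyMT*, E0771 and E0771-LG experiments, as the difference from the mean of the 6 samples of the experiment. The gray vertical line separates control from PTN-inhibited samples. Irf7 has its highest point in E0771-LGshCtrl replicate 2 and its lowest points in 3B10 replicate 1 and E0771-LGshPTN replicate 1, as does the median of the target genes, while in 3B10 replicates 2 and 3 they lie on opposite sides of 0.

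Marker genes were checked against the labels. The epithelial markers Epcam, Krt8, Krt18 and Cdh1 were present in all tumors. Both cell lines expressed Krt8, at 88.4 to 107 CPM in E0771 and 143 to 538 CPM in E0771-LG cells, but Cdh1, Krt5 and Krt14 were below 1 CPM in every sample of both lines, as was Krt18 in E0771. The leukocyte marker Ptprc was at most 0.72 CPM in any cell sample, and Itgam and Cd3e were at or near 0. Of 18 leukocyte markers, 12 were below 1 CPM in all E0771 samples and 11 in all E0771-LG samples. In the tumors Ptprc was present in every sample.

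Some markers shifted with knockdown. In E0771 cells all 5 tested fibroblast markers rose (median log2 fold change 1.61), with Col3a1 at a mean of 21.4 CPM with shCtrl and 154 with shPTN, while of 6 tested leukocyte markers 0 fell and 2 rose (median −0.16). Of 6 fibroblast markers tested in E0771-LG cells 2 fell and 1 rose (median −0.56), with Pdgfra at a mean of 77.8 CPM with shCtrl and 47.9 with shPTN. In the same cells all 3 tested epithelial markers rose, Krt8 from a mean of 159 to 473 CPM, and of 7 tested leukocyte markers 2 fell and 3 rose (median 0.43), while the most abundant of them, Laptm5, was at 85.1 CPM with shCtrl and 44.4 with shPTN. The part of these shifts in the values of the members was not tested.

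In the mouse genome (GRCm38) Ifnar2 (ENSMUSG00000022971) and Ifnar1 (ENSMUSG00000022967) lie on the plus strand of chromosome 16, at 91372783 to 91405589 and 91485238 to 91507441. They are 79649 bases apart, and Il10rb is the only other measured gene between them. The other members are scattered over chromosome 4 (Jak1), 7 (Irf3 and Irf7), 9 (Tyk2), 10 (Stat2), 11 (Irf1) and 14 (Irf9). Exons of 3 members overlap those of a neighbouring gene: Irf9 shares 123 exon bases with Rnf31 on the same strand, Irf3 shares 88 with Bcl2l12 and Irf7 shares 45 with Phrf1, both on the opposite strand. These shared bases are between 1.19% and 2.56% of the exon length of the member.

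Ptn, the target of the shRNA, was measured first. Its log2 CPM was 2.90, 2.18 and 2.28 in E0771shCtrl and −0.63, 0.25 and 0.53 in E0771shPTN. In E0771-LGshCtrl the values were 3.65, 4.51 and 3.74, against 1.42, 0.98 and 1.38 in E0771-LGshPTN. The groups were fully separate in each line, and Ptn was left at 18.9% (E0771) and 15.3% (E0771-LG) of the control level. In the tumors, where 3B10 acts on the protein, Ptn values were 2.80, 2.73 and 3.42 log2 CPM in *MMTV-PyMT* tumors with C44 and 3.28, 2.95 and 4.22 with 3B10. In 4T1 tumors the values were −0.19, −0.65 and −0.12 with C44 and −0.76, 0.86 and 0.37 with 3B10, too low for the test. The groups overlapped in both tumor experiments.

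The first comparison asks how the 9 genes responded to PTN knockdown in E0771 cells. Ifnar1, Stat2, Irf9 and Irf7 fell, so that 4 of 9 members were lower and 0 higher, where 11.7% of the 10394 genes tested fell and 8.89% rose. With voom weights on the recovered reads limma also called 4 lower and 0 higher, but the fit of all 24 samples together called 1 lower. Without E0771shCtrl replicate 2 or without replicate 3 the count was 2. Of all genes, 1216 of 10394 fell in the main fit and 554 of 10394 in that of all 24 samples. Without E0771shCtrl replicate 2 these were 670 of 10364, and without replicate 3 they were 643 of 10364. The median log2 fold change of the members was −0.37 and that of all genes tested −0.03. Below 0 were 7 of 9 members, against 54.6% of all genes.

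In E0771-LG cells the pattern was split. Jak1 and Irf9 fell and Irf3 rose, so that 2 of 9 members were lower and 1 higher, in a line where 22.1% of the 10405 genes tested fell and 24.3% rose. With quantile normalization 4 members were lower, as without E0771-LGshCtrl replicate 1, and without E0771-LGshPTN replicate 1 there was 1. The count of higher members was 2 without E0771-LGshCtrl replicate 2 and in the fit of all 24 samples. Of all genes, 2309 of 10405 fell with quantile normalization and 2505 of 10375 without E0771-LGshCtrl replicate 1. Without E0771-LGshPTN replicate 1 these were 2087 of 10322. Those that rose were 2684 of 10359 without E0771-LGshCtrl replicate 2 and 2282 of 10405 in the fit of all 24 samples. The median log2 fold change was −0.19 for the members and 0.05 for all genes, and 6 of 9 members were below 0, against 46.2% of all genes. Irf9 was the only member that fell in both lines.

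**Figure D2:**
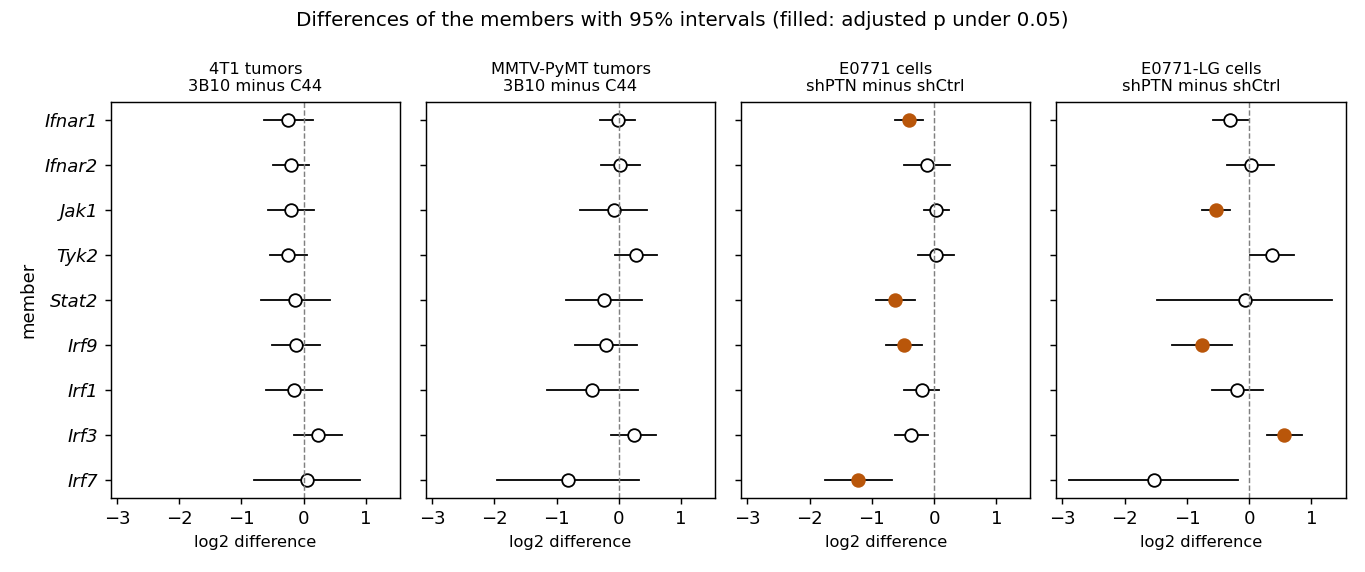
Log2 fold change of each member after PTN inhibition in the 4 experiments, with its 95% confidence interval, where filled symbols mark an adjusted p under 0.05 by limma. Irf7 had the lowest values in 3 experiments, *MMTV-PyMT* tumors (−0.81), E0771 (−1.21) and E0771-LG cells (−1.53), and was at 0.06 in 4T1 tumors.

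Of the receptor chains, Ifnar1 was at 5.31, 5.35 and 5.31 log2 CPM in E0771shCtrl and at 4.83, 4.97 and 4.96 in E0771shPTN. The control replicates were close to each other and the groups did not overlap. Ifnar1 fell to 75.7% of control (log2 fold change −0.40, standard error 0.10, limma adjusted p = 0.0192). The fold change stayed between −0.43 and −0.36 when single samples were left out, but the call was kept in only 2 of 6 such fits. The adjusted p was 0.0609 without E0771shCtrl replicate 2, 0.0739 without replicate 3, 0.0504 without E0771shPTN replicate 1 and 0.0624 without replicate 3. In E0771-LG cells Ifnar1 was at 4.92, 5.26 and 5.08 with shCtrl and at 4.70, 4.87 and 4.78 with shPTN. Again the groups did not overlap, with a log2 fold change of −0.30 (standard error 0.13, limma adjusted p = 0.0801). Without E0771-LGshCtrl replicate 2 it was −0.21 (adjusted p = 0.239), and it passed without replicate 1 (−0.39, adjusted p = 0.0275) and with quantile normalization (−0.34, adjusted p = 0.0464). Ifnar2, the chain with the signalling tail needed for STAT recruitment, had 164 to 258 reads per cell sample, overlapped between the groups in both lines, and had log2 fold changes of −0.12 and 0.02.

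Of the kinases, Jak1 was not called in E0771 cells (log2 fold change 0.04, limma adjusted p = 0.808). There it was at 8.35, 8.48 and 8.33 log2 CPM with shCtrl and 8.28, 8.53 and 8.46 with shPTN. In E0771-LG cells it was at 8.05, 8.33 and 8.29 with shCtrl and at 7.69, 7.62 and 7.77 with shPTN. Every E0771-LGshPTN value lay below every other Jak1 value in the cells. The fall to 69.3% of control (log2 fold change −0.53, standard error 0.10, limma adjusted p = 0.00186) held in all 6 fits that left out single samples, from −0.62 to −0.48. The effect on Jak1 differed between the lines by −0.57 (standard error 0.14, limma adjusted p = 0.00622). Tyk2, the kinase bound to IFNAR1, was at 4.67, 4.84 and 4.96 in E0771shCtrl and at 4.73, 5.05 and 4.80 in E0771shPTN. In E0771-LG cells it was at 3.86, 4.24 and 3.79 with shCtrl and 4.29, 4.42 and 4.29 with shPTN. There the shPTN values were all above the shCtrl values, with a log2 fold change of 0.37 (standard error 0.16, limma adjusted p = 0.0797). Replicate 2 of E0771-LGshCtrl was the highest control, and without it the fold change was 0.51 (adjusted p = 0.0213), and the fit of all 24 samples also called Tyk2 higher (adjusted p = 0.0309).

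Of the ISGF3 subunits, Stat2 was at 4.88, 5.39 and 5.08 log2 CPM in E0771shCtrl and at 4.49, 4.42 and 4.58 in E0771shPTN, without overlap. It fell to 64.9% of control (log2 fold change −0.62, standard error 0.14, limma adjusted p = 0.0113). All 6 fits without single samples kept the call, from −0.74 to −0.49. In E0771-LGshCtrl the values were 2.68, 5.0 and 3.49, a spread from 110 to 628 reads, while E0771-LGshPTN was even at 3.44, 3.76 and 3.76. The shPTN values thus lay inside the range of the controls, and the log2 fold change of −0.07 (standard error 0.58, limma adjusted p = 0.928) says little about Stat2 in this line, since its 95% confidence interval runs from −1.48 to 1.34. Without E0771-LGshCtrl replicate 2 the value was 0.57 (adjusted p = 0.0787), and the difference between the lines, 0.55 with all samples (adjusted p = 0.525), became 1.19 (adjusted p = 0.00616). Without other single samples the E0771-LG value went down to −0.60 and the difference between the lines to 0.02. That difference was called in 1 of 12 such fits.

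Irf9, the DNA-binding subunit of ISGF3, was at 5.35, 5.50 and 5.45 log2 CPM in E0771shCtrl and at 5.02, 4.68 and 5.13 in E0771shPTN. In E0771-LG cells the values were 4.39, 5.21 and 4.51 with shCtrl and 3.67, 4.11 and 4.06 with shPTN. The groups did not overlap in either line, although the E0771-LG controls were spread by the high replicate 2. Irf9 fell to 71.3% of control in E0771 (log2 fold change −0.49, standard error 0.13, limma adjusted p = 0.0234) and to 59.3% in E0771-LG cells (−0.75, standard error 0.22, limma adjusted p = 0.0171), and these effects did not differ (adjusted p = 0.474 for the interaction). Without E0771-LGshCtrl replicate 2 the fold change in E0771-LG cells was −0.50 (adjusted p = 0.0372). The call was lost without E0771-LGshPTN replicate 1 (−0.62, adjusted p = 0.0663), and in E0771 cells without shCtrl replicate 2 (−0.46, adjusted p = 0.0837) or replicate 3 (−0.48, adjusted p = 0.0828). Rnf31, which shares exon bases with Irf9, fell in E0771 cells (−0.51, adjusted p = 0.0123) and was at 0.15 in E0771-LG cells (adjusted p = 0.509).

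Of the regulatory factors, Irf7 changed most. Its log2 CPM was 3.61, 4.57 and 3.97 in E0771shCtrl (210 to 485 reads) and 2.87, 2.55 and 3.08 in E0771shPTN (105 to 141 reads). All shPTN samples were below all controls, and Irf7 fell to 43.1% of control (log2 fold change −1.21, standard error 0.24, limma adjusted p = 0.00605). The call held in all 6 fits without single samples, from −1.43 to −0.95. In E0771-LG cells the values were 3.56, 5.37 and 3.85 with shCtrl and 2.00, 2.94 and 3.25 with shPTN. The groups did not overlap, but E0771-LGshCtrl replicate 2 was far above and E0771-LGshPTN replicate 1 far below the others. With all samples the log2 fold change of −1.53 had an SE of 0.56 (adjusted p = 0.0656). Without E0771-LGshCtrl replicate 2 it was smaller and passed the test (−0.98, adjusted p = 0.0337), without replicate 1 it was −1.88 (adjusted p = 0.0467), and without E0771-LGshPTN replicate 1 it did not pass (−1.17, adjusted p = 0.166). Quantile normalization also called it (−1.72, adjusted p = 0.0361). In the fit of all 24 samples together Irf7 had an adjusted p of 0.127 (E0771) and 0.0153 (E0771-LG), and those of Stat2 and Irf9 in E0771 cells were 0.347 and 0.157.

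Irf3, which is activated by phosphorylation of protein that is already present, moved in opposite directions in the lines. It was at 5.34, 5.18 and 5.42 log2 CPM in E0771shCtrl and at 5.13, 4.83 and 4.89 in E0771shPTN. In E0771-LGshCtrl it was at 5.12, 5.12 and 4.76, against 5.51, 5.64 and 5.55 in E0771-LGshPTN. The groups were separate in both lines, with shPTN below the controls in E0771 and above them in E0771-LG cells. In E0771 the log2 fold change was −0.37 (standard error 0.12, limma adjusted p = 0.0547), which did not pass with all samples but did without E0771shPTN replicate 1 (−0.46, adjusted p = 0.0254), and in E0771-LG cells Irf3 rose to 148% of control (0.57, standard error 0.13, limma adjusted p = 0.00487). The difference between the lines was 0.93 (standard error 0.18, limma adjusted p = 0.00146) and stayed between 0.81 and 1.02 when single samples were left out. Bcl2l12, which overlaps Irf3, had log2 fold changes of −0.71 (adjusted p = 0.198) and 0.37 (adjusted p = 0.28). Irf1 was at 4.30, 4.37 and 4.41 in E0771shCtrl, at 4.23, 4.03 and 4.23 in E0771shPTN, and between 4.52 and 5.30 in E0771-LG cells. Its log2 fold changes were −0.20 in E0771 (adjusted p = 0.308) and −0.19 in E0771-LG cells (adjusted p = 0.422), the latter 0.03 without E0771-LGshCtrl replicate 2.

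**Figure D3:**
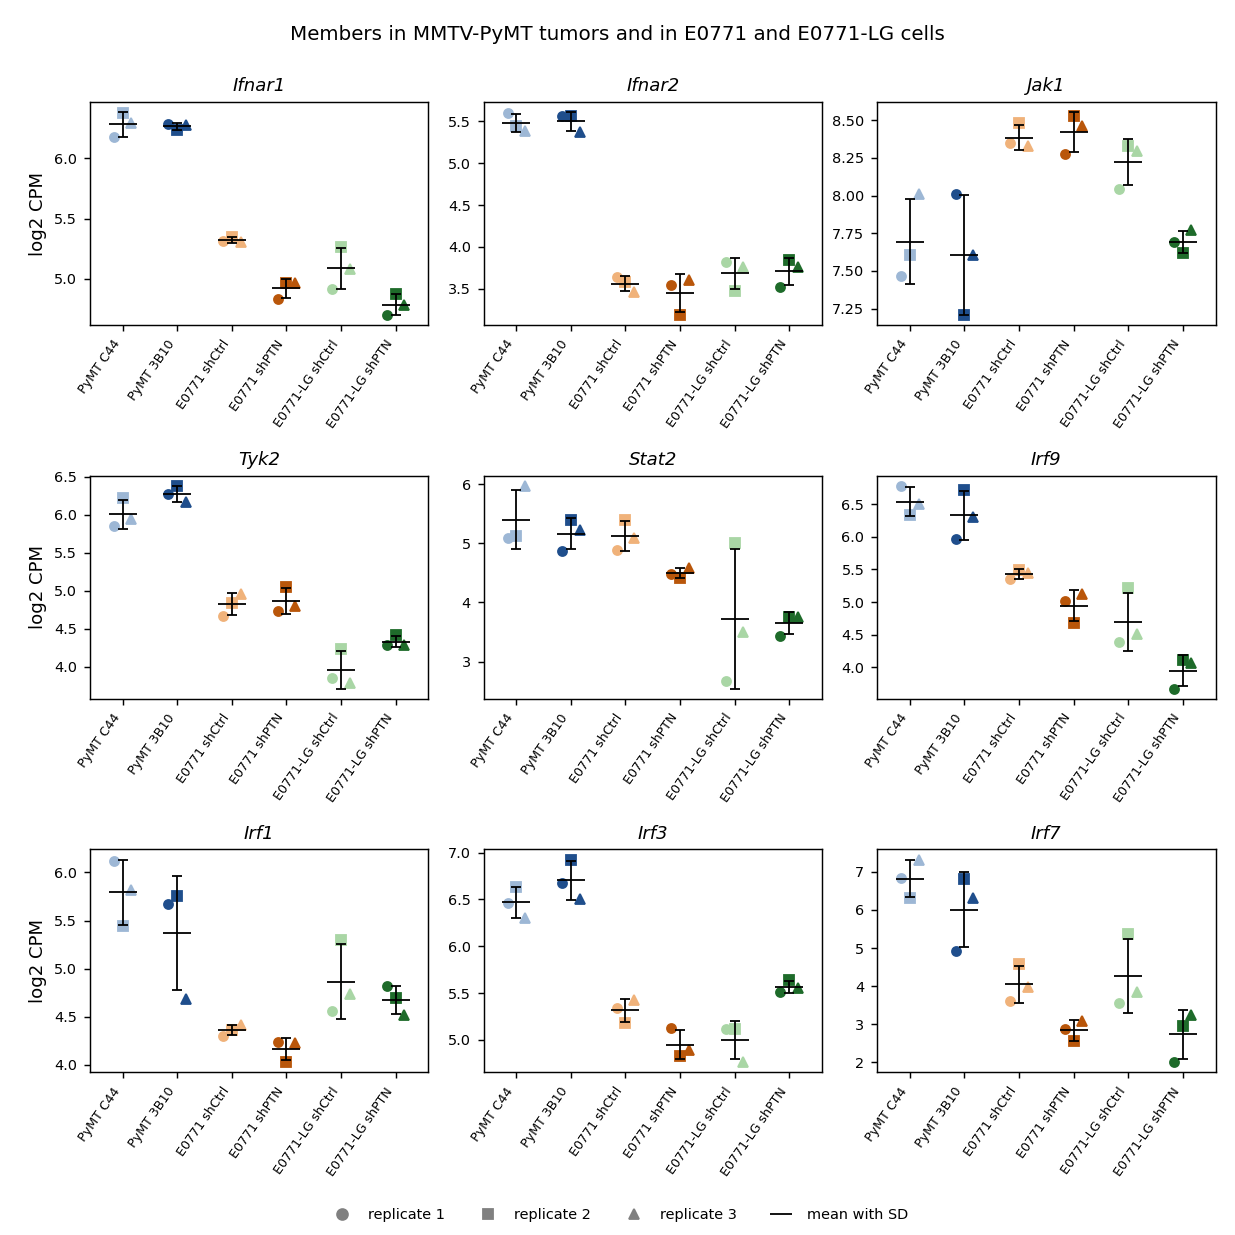
Log2 CPM of each member in every sample of the *MMTV-PyMT*, E0771 and E0771-LG experiments, with the mean of each group. In E0771 cells the shPTN samples lie below all shCtrl samples for 6 members, and in E0771-LG cells below for 4 (Ifnar1, Jak1, Irf9, Irf7) and above for 2 (Tyk2, Irf3). Of all genes tested, 22.5% lie below and 16.8% above in this way in E0771 cells, and 26.7% below and 30.5% above in E0771-LG cells.

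**Figure D4:**
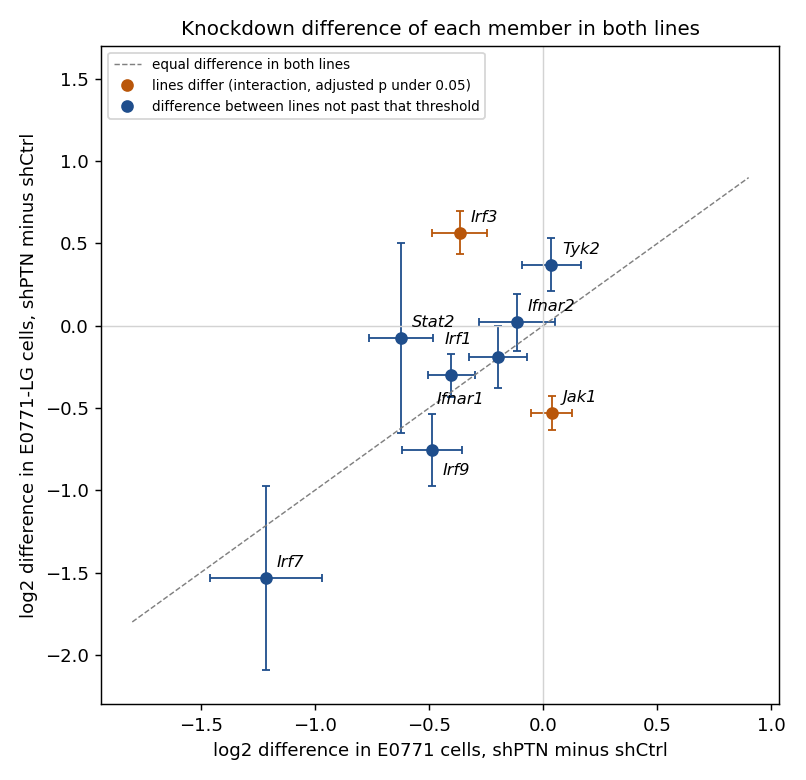
Log2 fold change of each member with shPTN in E0771-LG cells (vertical) against that in E0771 cells (horizontal), with standard errors. Jak1 and Irf3, in orange, lie off the dashed line of equal effect by an interaction with an adjusted p under 0.05.

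Over all members, the effect of shPTN was lower in E0771-LG than in E0771 cells for 1 (Jak1) and higher for 1 (Irf3), where 15.7% of 10600 genes were lower and 18.3% higher by the interaction term. Both were called in all 12 fits without single samples. The remaining 7 had adjusted p-values of at least 0.217.

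Because 4 members fell together in E0771 cells, the bases before their starts are shown, as RefSeq gives them for GRCm38.p6: 250 bases before the start of Ifnar1 (chr16:91484965-91485214, plus strand), Stat2 (chr10:128270248-128270497, plus strand), Irf9 (chr14:55603735-55603984, plus strand) and Irf7 (chr7:141266425-141266674, minus strand). Each reads 5′ to 3′ along the strand of the gene, and capitals mark an ISRE match. The letters searched were GAAANNGAAA, or TTTCNNTTTC on the opposite strand, for the ISRE, and TTCNNNGAA, which reads the same on both strands, for the GAS element that STAT dimers bind.
Ifnar1: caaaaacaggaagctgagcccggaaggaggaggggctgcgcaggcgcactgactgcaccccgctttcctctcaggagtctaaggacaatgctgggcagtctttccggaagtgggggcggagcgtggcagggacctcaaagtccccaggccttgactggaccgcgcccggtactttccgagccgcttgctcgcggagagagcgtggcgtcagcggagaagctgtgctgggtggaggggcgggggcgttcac
Stat2: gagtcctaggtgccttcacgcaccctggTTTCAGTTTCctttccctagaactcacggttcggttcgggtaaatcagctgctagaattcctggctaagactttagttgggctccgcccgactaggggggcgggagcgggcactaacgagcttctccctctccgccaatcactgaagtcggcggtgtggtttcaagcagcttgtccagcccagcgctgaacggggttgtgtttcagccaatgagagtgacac
Irf9: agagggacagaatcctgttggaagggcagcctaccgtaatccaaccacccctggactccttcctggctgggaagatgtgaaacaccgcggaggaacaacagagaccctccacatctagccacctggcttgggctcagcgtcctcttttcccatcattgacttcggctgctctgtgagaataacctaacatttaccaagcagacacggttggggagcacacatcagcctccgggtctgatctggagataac
Irf7: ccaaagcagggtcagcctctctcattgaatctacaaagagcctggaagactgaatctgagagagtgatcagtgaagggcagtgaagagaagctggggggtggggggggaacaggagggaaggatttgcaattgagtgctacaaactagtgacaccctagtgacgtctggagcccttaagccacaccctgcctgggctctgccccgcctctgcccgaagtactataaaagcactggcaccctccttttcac
Of these 4, the Stat2 window holds an ISRE match, TTTCAGTTTC, 222 bases before the start. Among the other members, GAS matches were found for Ifnar2 (214 bases before the start) and Irf1 (90 bases before), and no match of either kind for Jak1, Tyk2 and Irf3. Of 32851 promoters of the same length, 2.98% held an ISRE match and 7.02% a GAS match. Counted per gene, with a match at any listed start, the shares were 3.46% and 8.13% of 27025 genes, and among ISGF3 target genes 8 of 21 held an ISRE match. RefSeq lists 2 starts for Irf9 and Irf1, and the start nearest to that of the gene in GENCODE is used. For Irf9 it lies 414 bases downstream of the GENCODE start (55603571), so the window shown lies inside the gene as GENCODE gives it. A match describes letters in this window only.

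The next comparison asks how the control cells of the lines differ. Relative to E0771shCtrl, 4 of 9 members were lower in E0771-LGshCtrl (Tyk2, Stat2, Irf9, Irf3) and 1 was higher (Irf1), where 37.3% of 10600 genes were lower and 20.5% higher. The split of all calls depended on the scaling: 64.5% of called genes were lower with the values as deposited, 49% with quantile normalization and 49.1% with median-of-ratios scaling, and the median over all genes moved from −0.15 to 0.00 and 0.01.

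Tyk2 was at 55% of its E0771 level (log2 difference −0.86, standard error 0.14, limma adjusted p = 0.00013), with no overlap between 3.79 to 4.24 and 4.67 to 4.96 log2 CPM. Irf9 was at 60.3% (−0.73, adjusted p = 0.00488) and kept the call in all 12 fits without single samples. Stat2 was at 38% (−1.40, standard error 0.44, limma adjusted p = 0.0187), and at a log2 difference of −2.04 without E0771-LGshCtrl replicate 2 (adjusted p = 2.3e-06). Over all 12 fits without single samples its difference lay between −2.04 and −0.87, and 10 of them called it. The call of Stat2 was lost without E0771-LGshCtrl replicate 3 (adjusted p = 0.0555) or E0771shCtrl replicate 2 (adjusted p = 0.0582). Irf1 was higher by 0.51 (adjusted p = 0.0162), which without E0771-LGshCtrl replicate 2 became 0.29 (adjusted p = 0.0928). Irf3 was lower by −0.32 (adjusted p = 0.0416), and this call was lost with quantile normalization (−0.09, adjusted p = 0.559), with median-of-ratios scaling (−0.16, adjusted p = 0.302) and in 6 of 12 fits without single samples, with adjusted p-values of up to 0.208 (without E0771-LGshCtrl replicate 3). Quantile normalization added calls for Ifnar2 (0.51, adjusted p = 0.0183, against 0.12 as deposited) and Jak1 (−0.25, adjusted p = 0.0477), and gave −0.54 for Tyk2, −0.47 for Irf9 and 0.79 for Irf1. The count of members that differed was 6 with quantile normalization, 4 with median-of-ratios scaling and 3 without E0771-LGshCtrl replicate 3. Of all genes, 5775 and 6049 of 10600 differed with these scalings and 5547 of 10585 without that replicate, against 6136 of 10600 as deposited. Without E0771-LGshCtrl replicate 2, Ifnar1 was also lower (−0.32, adjusted p = 0.0297, against −0.23 and 0.0837 with it). This was the only 1 of 12 such fits to call Ifnar1, and its difference went up to −0.15 in the others. It was −0.01 with quantile normalization and −0.07 with median-of-ratios scaling.

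Levels of the genes were compared with each other only per kb of exon, with every base of any annotated exon counted. For Irf7 this length, 3776 bases, is its whole span from 141262706 to 141266481, so any introns count as exon. For Irf9 it is 5386 bases of a span from 55603571 to 55610030. How far these lengths place Irf7 and Irf9 low in the order, here and in *MMTV-PyMT* tumors, was not tested. In E0771shCtrl Jak1 had the highest level (5.53 ± 0.08 log2 CPM per kb, SD, n = 3), followed by Irf3 (3.53 ± 0.12), Irf9 (3.00 ± 0.08), Ifnar1 (2.75 ± 0.02), Stat2 (2.55 ± 0.26), Irf1 (2.37 ± 0.05), Irf7 (2.13 ± 0.49), Tyk2 (2.04 ± 0.14) and Ifnar2 (1.82 ± 0.09). From Ifnar1 down to Tyk2 the gap between neighbours was within the larger of their SDs. In E0771-LGshCtrl only 2 gaps were beyond it, that of 2.15 between Jak1 (5.37 ± 0.15) and Irf3 (3.22 ± 0.21) and that of 0.77 between Ifnar2 (1.95 ± 0.19) and Tyk2 (1.18 ± 0.25). Between those came Irf1, Ifnar1, Irf7 and Irf9, and Stat2 was last (1.15 ± 1.18). With shPTN, Jak1 and Irf3 kept the top of the order in both lines, and Irf7 was last in both, at 0.91 ± 0.27 in E0771shPTN and 0.81 ± 0.65 in E0771-LGshPTN. The step from Ifnar2 to Irf7 in E0771shPTN (0.80) was beyond the spread, and that from Stat2 to Irf7 in E0771-LGshPTN (0.27) was not.

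With the antibody, no member passed the test in either tumor experiment. In *MMTV-PyMT* tumors limma called 0 members lower and 0 higher at an adjusted p under 0.05, as it did 0% of 11361 genes in each direction. At an unadjusted p under 0.05 it called 0 members, against 1.18% of genes lower and 1.52% higher, and with voom weights it again called 0. The median log2 fold change was −0.09 for the members and 0.05 for all genes, and 6 of 9 members were below 0, against 39% of all genes. Every C44 library (18.76 to 19.25 M reads) was larger than every 3B10 library (16.26 to 18.44 M reads), and the part of this in the values was not tested.

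Irf7 was at 6.83, 6.32 and 7.32 log2 CPM in *MMTV-PyMT* tumors with C44 and at 4.91, 6.81 and 6.31 with 3B10. Replicate 1 with 3B10 was the lowest of all tumors and carries most of the log2 fold change of −0.81 (standard error 0.48, limma adjusted p = 0.999996). The fold change was −0.27 without it and up to −1.22 without another tumor. Irf9 was at 6.78, 6.34 and 6.50 with C44 and at 5.97, 6.72 and 6.31 with 3B10, and its fold change of −0.21 became −0.03 without the same tumor and up to −0.40 without another. Stat2 was at 5.09, 5.13 and 5.97 with C44 and 4.87, 5.39 and 5.22 with 3B10. Here C44 replicate 3 was highest, and the fold change of −0.23 became 0.05 without it and up to −0.39 without another tumor. Irf1 had a log2 fold change of −0.42 (SE 0.31), with 3B10 replicate 3 at 4.69 and all other tumors between 5.45 and 6.12. The value was −0.08 without that replicate and up to −0.62 without another tumor. Tyk2 (0.27, SE 0.15) and Irf3 (0.24, SE 0.16) had means above those of C44, and Ifnar1, Ifnar2 and Jak1 lay between −0.09 and 0.02. Without single tumors the value of Irf3 ranged from 0.13 to 0.34. All 9 members overlapped between the groups, as did 91.7% of all genes. Since tumors mix cancer and host cells, fewer cells of a type and less RNA per cell cannot be told apart. Leukocyte markers in the *MMTV-PyMT* tumors summed to 745, 963 and 432 CPM with C44 and to 843, 522 and 647 with 3B10, with Cd14 as the most abundant, and 0 of 15 tested had an unadjusted p under 0.05.

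Per kb, Irf7 (4.91 ± 0.50), Jak1 (4.84 ± 0.28) and Irf3 (4.68 ± 0.16) were the highest members in *MMTV-PyMT* tumors with C44 and did not differ beyond their spread. A gap of 0.57 separated them from Irf9, Irf1, Ifnar2 and Ifnar1, which lay between 4.11 and 3.71, and a gap of 0.49 separated these from Tyk2 (3.22 ± 0.19) and Stat2 (2.83 ± 0.50). With 3B10 Irf3 (4.92 ± 0.21) and Jak1 (4.75 ± 0.40) were highest and Stat2 (2.59 ± 0.26) lowest. The gap of 0.66 from Jak1 to Irf7 (4.09 ± 0.99), the next in order, was within the larger SD.

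In 4T1 tumors limma likewise called 0 members lower and 0 higher, and 0% of 11467 genes in each direction. At an unadjusted p under 0.05 there were 0 members, against 3.1% of genes lower and 3.17% higher, and voom could not be used without read counts. Of the members, 7 of 9 were below 0, against 48.4% of all genes, with a median log2 fold change of −0.15, against 0.01 for all genes. Tyk2 was at 4.81, 4.73 and 4.80 with C44 and at 4.63, 4.54 and 4.44 with 3B10. Ifnar2 was at 5.79, 5.82 and 5.93 with C44 and at 5.65, 5.77 and 5.51 with 3B10. These were the only members whose groups did not overlap, at log2 fold changes of −0.24 (standard error 0.13, limma adjusted p = 0.849) and −0.21 (standard error 0.12, limma adjusted p = 0.88). Of all genes 11.3% were as separate, 4.42% lower and 6.87% higher. Irf7 was at 5.68, 5.87 and 6.08 with C44 and at 6.82, 5.75 and 5.23 with 3B10, so that the treated tumors spanned the controls on both sides. Its log2 fold change was 0.06 with all tumors, −0.39 without 3B10 replicate 1 and up to 0.41 without another tumor. Irf9 and Stat2 were also highest with 3B10 in replicate 1, at 5.65 and 6.25, and their fold changes of −0.12 and −0.13 became −0.26 and −0.35 without it, and up to 0.00 and 0.04 without other tumors.

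Leukocyte and epithelial markers moved with the groups in 4T1 tumors, while the sums of fibroblast and endothelial markers overlapped. Fibroblast markers summed to 1170 to 1802 with C44 and 964 to 4067 with 3B10, and endothelial markers to 104 to 245 and 94 to 201. Leukocyte markers summed to 11127, 8076 and 10468 with C44 and to 4725, 7496 and 4885 with 3B10, with Lyz2 as the most abundant gene. All 18 had log2 fold changes below 0, with a median of −0.71, and 13 had an unadjusted p under 0.05. Epithelial markers summed to 3268, 3568 and 3555 with C44 and 5054, 4701 and 5246 with 3B10, led by Krt18, and all 6 tested were higher at an unadjusted p under 0.05. The part of this shift in the values of the members was not tested. Per length, Irf1 was the highest member in both groups (7.77 ± 0.35 with C44, 7.62 ± 0.21 with 3B10), by 1.52 and 1.57 above Jak1, and Tyk2 was the lowest (4.78 ± 0.04 and 4.54 ± 0.10). Among the genes between Jak1 and Tyk2 in this order, only the neighbours Ifnar2 and Irf3 with 3B10 (gap 0.15) differed beyond their spread.

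**Figure D5:**
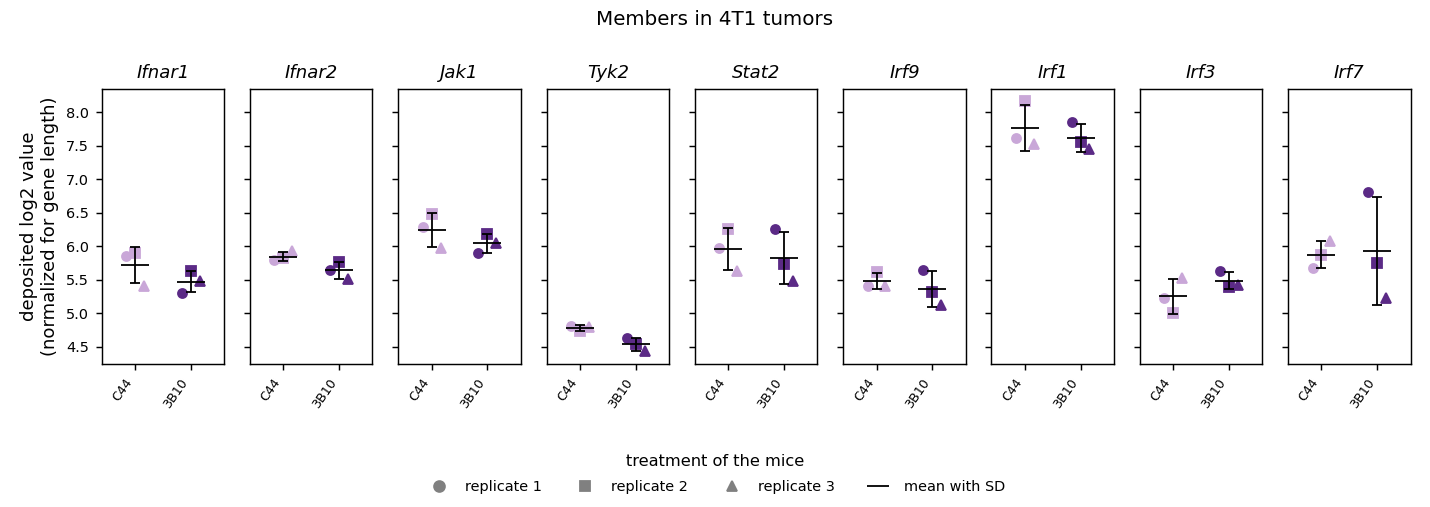
Log2 value, normalized for length, of each member in every 4T1 tumor, with the mean of each group. The groups are separate for Ifnar2 and Tyk2 only, as they are for 11.3% of all genes tested, and Irf7 spans from 5.23 to 6.82 with 3B10.

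Target genes of ISGF3 were counted beside the members, and no test links them to its subunits. In E0771 cells 12 of 26 tested fell and 0 rose, 25 of 26 were below 0 and their median log2 fold change was −0.70, against −0.03 for all genes. Of all genes 11.7% fell and 54.6% were below 0. Without E0771shCtrl replicate 3 the count of falls was 6, and without replicate 2 the median was −0.47. In these fits 643 of 10364 genes fell without replicate 3, and the median of all genes without replicate 2 was −0.03. Oasl2 (−1.91, adjusted p = 0.000753) and Cmpk2 (−1.69, adjusted p = 0.00457) fell most among the named targets, and Trim25 fell by −0.31 (adjusted p = 0.0139), a call lost without E0771shCtrl replicate 3 (adjusted p = 0.071) or E0771shPTN replicate 3 (adjusted p = 0.0703), and in the fit of all 24 samples (adjusted p = 0.291).

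Of the same targets 13 of 26 fell and 0 rose in E0771-LG cells, where 22.1% of all genes fell and Stat2 had no clear value. There 21 were below 0, against 46.2% of all genes, with a median of −1.19, against 0.05. Without E0771-LGshCtrl replicate 2 the count stayed at 13 and the median was −0.84, and without E0771-LGshPTN replicate 1 these were 8 and −1.01. Of all genes, 2222 of 10359 fell in the former fit and 2087 of 10322 in the latter. Here Cmpk2 fell by −2.70 (adjusted p = 0.000362), Oasl2 by −2.39 (adjusted p = 0.0182, but 0.0656 with voom weights and 0.0648 without E0771-LGshPTN replicate 1) and Trim25 by −1.05 (adjusted p = 0.000103). When single samples were left out, Oasl2 lay between −2.81 and −1.74 and Cmpk2 between −2.91 and −2.28. Ifit2 fell only in this line (−1.33 against 0.18, adjusted p = 0.000491 for the interaction). In *MMTV-PyMT* tumors 0 were called and 27 of 28 were below 0, against 39% of all genes, with a median of −0.43, against 0.05. Without 3B10 replicate 1 these were 19 of 28 and −0.08, and without C44 replicate 3 they were 22 of 28 and −0.19, whereas without C44 replicate 2 they were 27 and −0.66, and without 3B10 replicate 3 they were 28 and −0.65. In 4T1 tumors 0 were called and 12 of 28 were below 0, against 48.4% of all genes, with a median of 0.04, and these moved both ways: 24 of 28 and −0.13 without 3B10 replicate 1, 7 and 0.22 without 3B10 replicate 3, 9 and 0.09 without C44 replicate 2, 12 and 0.08 without 3B10 replicate 2, and 13 and 0.06 without C44 replicate 3.

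Of IRF1 target genes, 4 of 16 fell and 1 rose in E0771 cells, and 4 fell and 3 rose in E0771-LG cells. For this and the lists that follow, the shares over all genes are 11.7% that fell and 8.89% that rose in E0771 cells, against 22.1% and 24.3% in E0771-LG cells. The guanylate-binding proteins Gbp2 (−1.64 and −2.80, adjusted p = 0.00236 and 0.000121) and Gbp3 (−1.55 and −2.73, adjusted p = 0.00235 and 0.000195) fell in both lines. In E0771-LG cells the immunoproteasome subunit Psmb10 fell (−0.71, adjusted p = 0.00164) and the peptide transporter Tap2 rose (0.93, adjusted p = 0.00148). Of the sensors and adaptors upstream of IRF3 and IRF7, 5 of 15 fell in E0771 and 7 of 15 in E0771-LG cells, and 0 rose in either line, beside 11.7% and 22.1% of all genes that fell. The double-stranded RNA sensor Tlr3 fell in both (−0.87, adjusted p = 0.008, and −1.21, adjusted p = 0.000326). Ifi204 fell in E0771 cells (−1.03, adjusted p = 0.00112, but 0.0795 in the fit of all 24 samples), and the ubiquitin ligases Traf6 (−1.02, adjusted p = 0.000164) and Traf3 (−0.61, adjusted p = 0.00235) fell in E0771-LG cells. Without E0771shCtrl replicate 2 the count in E0771 cells was 3, where 670 of 10364 genes fell.

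Relatives of the 9 genes were counted in the same way. Of 5 other STATs, 1 fell and 1 rose in E0771 cells and 3 fell in E0771-LG cells. Stat6 rose in E0771 (0.57, adjusted p = 0.0109) and fell in E0771-LG cells (−0.27, adjusted p = 0.0324), where Stat5b (−0.47, adjusted p = 0.00948) and Stat3 (−0.42, adjusted p = 0.0311) also fell. The call of Stat6 was lost in E0771 without shCtrl replicate 2 (0.47, adjusted p = 0.0522), and in E0771-LG cells those of Stat6 and Stat3 were kept in 2 of 6 fits without single samples, with adjusted p-values of up to 0.126 (without E0771-LGshPTN replicate 2) and 0.117 (without E0771-LGshPTN replicate 1). Quantile normalization also ended both calls (Stat6 −0.16, adjusted p = 0.177, and Stat3 −0.32, adjusted p = 0.0881), as did eBayes without robust or trend (adjusted p = 0.0614 and 0.0786). That of Stat3 was lost without the filter on low values too (adjusted p = 0.0684), and those of Stat6 (adjusted p = 0.0874) and Stat5b (adjusted p = 0.0646) in the fit of all 24 samples. Of 4 other IRFs, only Irf8 fell in E0771 cells (−2.08, adjusted p = 0.00335), and 0 of 3 passed in E0771-LG cells. Of 5 other interferon receptors and JAKs, Jak3 fell in E0771 cells (−0.49, adjusted p = 0.0214) and 0 passed in E0771-LG cells. The call of Jak3 in E0771 cells was kept in 3 of 6 fits, with −0.39 (adjusted p = 0.0858) without E0771shCtrl replicate 2, and was lost in the fit of all 24 samples (adjusted p = 0.071). In E0771-LG cells Jak3 was higher in that fit (0.42, adjusted p = 0.0498), without E0771-LGshCtrl replicate 2 (0.60, adjusted p = 0.0303) and without E0771-LGshPTN replicate 1 (0.65, adjusted p = 0.0181).

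Among 11 negative regulators, 2 fell and 1 rose in E0771, and 2 fell and 2 rose in E0771-LG cells. Of all genes 11.7% fell and 8.89% rose in the former, and 22.1% fell and 24.3% rose in the latter. The phosphatase Ptpn11 fell in both lines (−0.31, adjusted p = 0.0152, and −1.01, adjusted p = 6.95e-05), Ptpn6 rose in both (0.99, adjusted p = 0.00294, and 0.52, adjusted p = 0.0428), and in E0771-LG cells Pias2 fell (−0.73, adjusted p = 0.00162) and Pias4 rose (0.77, adjusted p = 0.000283). Without single samples, the fall of Ptpn11 in E0771 cells was called in 3 of 6 fits, with adjusted p-values of up to 0.0859 (without E0771shCtrl replicate 3), and had an adjusted p of 0.327 in the fit of all 24 samples. The rise of Ptpn6 in E0771-LG cells was called in 2 of 6, with adjusted p-values of up to 0.15 (without E0771-LGshPTN replicate 2), and was lost without the filter on low values and with eBayes without robust or trend (adjusted p = 0.0841 and 0.0837). Of the interferon genes themselves, 0 of 9 listed were among the genes analysed here.

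Irf9 was called in both lines, so the genes with the most similar course over the 18 samples with read counts were sought among 9938 genes. Likeness was the root mean square difference of log2 values, each taken from the mean of its experiment. The nearest were Tapbp (0.116), Pdk1 (0.198) and Adar (0.2), against a median of 0.428 over all genes. A gene that stayed at the mean of each experiment would be at 0.357 from Irf9. The samples share their libraries and experiments, and the measure carries no test.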

How the data were processed

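RNA was sequenced from 24 mouse samples in 4 experiments, each with 3 samples under a control and 3 under PTN inhibition. Per the submitters' notes, the authors aligned reads with HISAT2 to GRCm38 (mm10), counted them with featureCounts and tested them with edgeR, with no versions given. The deposited values are log2 values: log2 CPM for *MMTV-PyMT* tumors and both cell lines, and log2 values normalized for gene length for 4T1 tumors, whose step and depth are not stated. Whole reads were recovered from log2 CPM with an offset of 0.5 reads in 18 samples, and came to 15.63 to 21.12 M per sample.

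After each value was taken off the log scale and the minimum of its sample subtracted, genes reaching 1 or more in 3 or more samples were kept. Each experiment was tested with limma 3.58.1 in R 4.3.3 (linear model, moderated variances with trend and robust estimation, Benjamini-Hochberg adjustment over all genes tested, threshold 0.05). The cell lines were fitted together for the difference of effects (interaction) and of control levels. Tables and figures used Python 3.11.15 with numpy 2.4.6, pandas 2.3.3 and matplotlib 3.10.9. Levels per kb used GENCODE exon lengths, with each base in any annotated exon of the gene counted once, and promoters used RefSeq starts. The scripts were tested on simulated data.

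The members and the lists of related genes were chosen with earlier results of these data known. Beside the members, up to 4 genes of a list were named, those called in either cell line with the lowest adjusted p, and some single-gene results that this rule names are not reported here. Alternatives tried were other filters, a pseudocount of 1, quantile and median-of-ratios scaling, limma without trend and robust estimation, voom weights on recovered reads, a common fit of all 24 samples, the replicate number in the model, and leaving out each sample. Leaving out samples or using the replicate number for the counts and medians of target genes and sensors was chosen after seeing the data.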

Additional observations from a re-analysis of the deposited data

Results flagged for a closer look

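The effect of PTN knockdown differed between E0771-LG and E0771 cells, by an adjusted p under 0.05 for the limma interaction term, for 2 of 9 members, while of all 10600 genes tested 15.7% were lower and 18.3% higher by this term. The related genes below were named for a call in either cell line, which favors large effects, and are not all the related genes that passed, so their number is not set against these shares. The values are log2 fold changes in E0771-LG minus those in E0771 cells. Among the members they were 0.93 for Irf3 and −0.57 for Jak1. Among ISGF3 and IRF1 target genes they were −1.51 for Ifit2, −0.74 for Trim25, −1.16 for Gbp2, 0.89 for Tap2 and −0.84 for Psmb10. Among sensors and adaptors they were −0.81 for Traf6 and −0.49 for Traf3. Among related STAT, IRF and JAK genes they were −0.83 for Stat6, 2.08 for Irf8 and 0.90 for Jak3, and among negative regulators 0.85 for Pias4, −0.70 for Ptpn11 and −0.49 for Pias2. The differences of Gbp2, Pias2 and Traf3 were called in 4, 3 and 6 of 12 fits that left out single samples, and that of Jak3 in 11. That of Gbp2 was also lost with a pseudocount of 1 (−0.61, adjusted p = 0.17) and with voom weights (adjusted p = 0.127), as was that of Irf8 with voom weights (2.03, adjusted p = 0.0872). That of Pias2 was lost with quantile normalization (adjusted p = 0.0528), and those of Pias2 and Traf3 with eBayes without robust or trend (adjusted p = 0.0603 and 0.059). What makes the lines differ was not tested.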

How the results depend on the processing

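Of 855 values of the members under other settings, 778 kept their direction and side of the threshold, 21 lost and 15 gained the call, and 41 changed sign, all uncalled in both. Of 1036 values of other named genes, 937 were kept, 67 lost, 15 gained and 17 changed sign, all uncalled in both. Members lower in E0771 were 4, and 1 with all 24 samples fitted together (2 to 4 without single samples). In E0771-LG cells 2 were lower, 4 with quantile normalization (1 to 4), and 1 higher, 2 with all 24 samples (1 to 2). Members that differed in level were 5 (3 to 5), 6 with quantile normalization and 4 with median-of-ratios scaling. ISGF3 target genes lower in E0771 were 12 (6 to 12), in E0771-LG 13 (8 to 15), and sensors in E0771 5 (3 to 6). With quantile normalization values changed sign for Ifnar2 in *MMTV-PyMT* tumors (−0.0228), Jak1 in E0771 (−0.00637), Ifnar2 (−0.129) and Irf8 (−0.107) in E0771-LG, and the interactions of Ifnar2 (−0.041) and Irf1 (−0.121). With median-of-ratios scaling they did for Ifnar2 in *MMTV-PyMT* tumors (−0.0274), Ifnar2 (−0.0116) and Irf8 (−0.0301) in E0771-LG and the interaction of Irf1 (−0.045), and with voom for Irf8 in E0771-LG (−0.0478). Without single samples, values that changed sign ranged in 4T1 tumors from −0.347 to 0.0357 (Stat2), −0.264 to 0.00339 (Irf9), −0.278 to 0.0428 (Irf1) and −0.385 to 0.408 (Irf7). In *MMTV-PyMT* tumors they ranged from −0.0698 to 0.0299 (Ifnar1), −0.0214 to 0.0854 (Ifnar2), −0.286 to 0.113 (Jak1) and −0.388 to 0.0521 (Stat2). In E0771 cells the ranges were −0.197 to 0.0134 (Ifnar2), −0.0166 to 0.11 (Jak1), −0.0598 to 0.104 (Tyk2), −0.0823 to 0.0913 (Stat3), −0.0593 to 0.138 (Tap2) and −0.0729 to 0.256 (Psmb10). In E0771-LG cells they were −0.0844 to 0.112 (Ifnar2), −0.598 to 0.566 (Stat2), −0.345 to 0.0278 (Irf1), −0.251 to 0.382 (Irf8) and −0.231 to 0.52 (Ifi204). Interactions ranged from −0.148 to 0.224 (Irf1), −0.668 to 0.235 (Irf7) and −0.906 to 0.17 (Oasl2), and the level difference from −0.341 to 0.563 (Irf7). With the replicate number as a block, 5 members fell in E0771 (with Irf3, adjusted p = 0.0394), whereas E0771-LG had 3 that fell (with Irf7, adjusted p = 0.00794) and 1 that rose, Jak3 was called in E0771-LG (adjusted p = 0.048), and the interaction of Gbp2 was not (adjusted p = 0.0796). In none of the 4 experiments did every sample correlate best with its own number. The cause of these shifts was not tested.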
